A study of Mus musculus with 15 samples.

Results

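Transcript counts of 9 genes of neural progenitors and neurons were followed through mouse embryonic stem cells (mESCs) and embryoid bodies (EBs), the cell aggregates that mESCs form and differentiate in when held in suspension. The 9 genes were Pax6, En1, En2, Sox1, Hes5, Nes, Neurog2, Neurod1 and Dcx. They were chosen by name as a set of neural genes, with earlier results of these data known. Each was found by Ensembl ID among the 55471 gene IDs of each count table. Poly(A) RNA was sequenced in 15 libraries, 3 in each of 5 groups. All cells were E14 mESCs or their descendants, and mESCs were kept in 2i/LIF medium, which blocks MEK and GSK3 and supplies leukemia inhibitory factor. Wild-type mESCs were either nontreated or exposed to 500 nM dTAG-13 over 72 h. The knock-in line NSD1-dTAG, which was nontreated as mESCs, carries a degradation tag on NSD1, a methyltransferase of lysine 36 of histone H3 mutated in human Sotos syndrome. EBs of that line were grown for 6 days in serum medium, nontreated or with 500 nM dTAG-13 throughout. dTAG-13 is a small molecule that brings a tagged protein to an E3 ubiquitin ligase for degradation. All EBs carried the tag, and EBs without the tag, and mESCs of the tagged line given dTAG-13, were not analysed here. The labels name biological replicates without saying how they were separated or how many clones the line comprised, so p-values measure the spread between these libraries.

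Neural tissue arises when pluripotent epiblast escapes the signals that make mesoderm and endoderm. Patterning factors such as Pax6 and the Engrailed proteins En1 and En2 then divide the neural plate into regions, Sox1, Hes5 and Nestin (Nes) accompany the progenitor state, proneural factors such as Neurog2 and Neurod1 drive neurons out of it, and doublecortin (Dcx) is made by migrating young neurons. EBs in serum produce a mixture of germ layers, so several of these genes are not specific there: Neurod1 also acts in pancreatic endocrine cells, Nestin in mesodermal and endothelial progenitors and En1 in the limb ectoderm.

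Gene counts per library summed to between 18704591 and 29103958. Nsd1 RNA does not test the degradation, which acts on the protein; it was at 261, 243 and 209 CPM (counts scaled to 1000000 gene counts per library) in nontreated EBs and 329, 306 and 230.0 CPM in dTAG-13 EBs, with overlapping groups and a log2 fold change of 0.26 (adjusted p = 0.351, edgeR quasi-likelihood test). In each group 1 library stood apart from its other two by reads from shorter genes and a larger share of ribosomal protein counts. These were replicate 1 of both nontreated mESC groups and replicate 3 of the other 3 groups, with read-weighted exon lengths of 4.99 to 5.5 kb and ribosomal protein shares of 5.69% to 7.92%, against 5.71 to 5.93 kb and 4.69% to 5.31% in the other 10 libraries. Pluripotency genes fit the mESC label, since the summed CPM of 12 of them was 4021 to 4421 in the 9 mESC libraries. The sum was still 2700 to 3414 CPM in nontreated EBs and 2588 to 3321 CPM in dTAG-13 EBs. Pou5f1 went from 1073 ± 127 CPM in mESCs of the tagged line to 691 ± 148 CPM in its nontreated EBs (SD, n = 3). In EBs of the tagged line against its mESCs 8 of the 12 fell, among them the naive factors Klf4 (366 ± 13.2 to 14.95 ± 4.57 CPM, SD, n = 3) and Zfp42 (549 ± 55.4 to 126 ± 24.1 CPM), and 4 rose, among them the formative genes Fgf5 and Dnmt3b (112 ± 18.3 to 882 ± 325 CPM).

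RefSeq promoter windows on GRCm38.p6, the 250 bases before a transcript start, were found for 8 of the 9 genes, and En2 had no entry. Stretches that end before the annotated gene start are shown for 5 genes. Pax6 and En1 are shown because both fell in dTAG-13 EBs, Neurod1 because it rose there, and Nes because it had the highest level in EBs. Hes5 is shown for its 2 separate matches to TGGGAA. Capitals mark CG dinucleotides except in Hes5, where they mark TGGGAA on either strand, the core of the sequence bound by the Notch effector RBPJ. Pax6 (chr2:105668646-105668895, + strand), En1 (chr1:120602237-120602417, + strand), Nes (chr3:87970843-87971077, + strand), Neurod1 (chr2:79456752-79456886, − strand) and Hes5 (chr4:154960673-154960922, + strand) read, from 5′ to 3′:
Pax6: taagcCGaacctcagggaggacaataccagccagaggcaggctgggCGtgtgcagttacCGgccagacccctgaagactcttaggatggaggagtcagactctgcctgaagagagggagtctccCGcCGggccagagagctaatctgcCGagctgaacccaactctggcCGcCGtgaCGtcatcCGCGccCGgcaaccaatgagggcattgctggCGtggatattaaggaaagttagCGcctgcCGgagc
En1: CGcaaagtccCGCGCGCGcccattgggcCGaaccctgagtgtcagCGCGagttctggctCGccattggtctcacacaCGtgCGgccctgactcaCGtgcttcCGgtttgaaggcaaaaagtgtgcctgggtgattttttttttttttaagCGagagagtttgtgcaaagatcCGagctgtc
Nes: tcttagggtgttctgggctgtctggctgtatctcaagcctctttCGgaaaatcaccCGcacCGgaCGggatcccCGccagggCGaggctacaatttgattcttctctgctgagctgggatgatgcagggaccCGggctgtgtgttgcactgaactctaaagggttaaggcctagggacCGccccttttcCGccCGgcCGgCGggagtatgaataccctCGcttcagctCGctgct
Neurod1: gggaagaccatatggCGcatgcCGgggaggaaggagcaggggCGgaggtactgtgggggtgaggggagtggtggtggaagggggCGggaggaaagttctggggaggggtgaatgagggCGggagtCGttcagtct
Hes5: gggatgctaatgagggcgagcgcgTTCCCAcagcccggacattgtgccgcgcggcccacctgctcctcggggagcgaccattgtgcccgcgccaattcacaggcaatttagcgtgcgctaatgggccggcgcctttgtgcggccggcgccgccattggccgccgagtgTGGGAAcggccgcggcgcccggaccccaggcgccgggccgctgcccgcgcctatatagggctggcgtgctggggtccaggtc

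The full 250-base windows of these genes held more CG than most windows. Pax6 held 15 CG dinucleotides, En1 19, Nes 15, Neurod1 22 and Hes5 32, against a median of 6 over 32841 windows of all genes. The share of windows with fewer was 72.7% for Pax6 and Nes, 80.3% for En1, 85.2% for Neurod1 and 95.4% for Hes5. Sox1 held 29 and Neurog2 held 8, while the 2 windows of Dcx, the gene of young neurons, held 3 each. Hes5 held TGGGAA 2 times, and 21.6% of all windows hold this word on either strand. GGGCGG, the core of the GC box, occurred 4 times in the Neurod1 window, 3 times in that of Sox1 and 2 times in those of Nes and Neurog2, and in 32.7% of all windows. The Dcx windows held TATAAA and TAATTA, which 12.4% and 4.8% of windows hold. The E-boxes CAGCTG and CAGATG were in none of the 10 member windows, against 13% and 14.4% of all windows. These matches describe letters in the windows and do not show a bound site.

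In mESCs the 9 genes spanned from clear expression to no counts. Per kilobase of exon, En2 was highest in wild-type nontreated mESCs at 4.01 ± 0.258 CPM per kb (SD, n = 3), followed by Nes at 1.10 ± 0.0388, Sox1 at 0.445 ± 0.0634, En1 at 0.261 ± 0.0858 and Neurod1 at 0.131 ± 0.0471, with no overlap between neighbours in this order. Pax6 at 0.0158 ± 0.0070 and Hes5 at 0.0094 ± 0.0163 CPM per kb overlapped, and Neurog2 and Dcx had 0 counts in all 9 mESC libraries. A count of 0 over 3 libraries allows up to 0.0413 CPM in that group, taking 3 counts as the limit for counting error.

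Exposure of untagged cells to dTAG-13 asks what the compound does without its target. None of the 5 genes that passed the count filter was called in wild-type mESCs, where 0% of 13784 genes tested were called at an adjusted p below 0.05 (edgeR). Of all genes, 229 (1.66%) had an unadjusted p below 0.05 (edgeR), and DESeq2 also called 0. En2 was at 14.3, 15 and 13.2 CPM nontreated and 14.4, 12.8 and 15.9 CPM with dTAG-13. Nes was at 6.83, 7.10 and 7.32 CPM nontreated and 6.19, 6.01 and 7.36 CPM with dTAG-13. Sox1 was at 1.82, 2.43 and 2.19 against 2.02, 2.90 and 1.84 CPM. The groups overlapped for all 3 genes, with log2 differences of 0.01, -0.13 and 0.07. En1 differed by -0.38 and Neurod1 by 0.41, also with overlapping groups, and the adjusted p was 1.00 for all 5 genes (edgeR).

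Nontreated NSD1-dTAG mESCs differed from nontreated wild-type mESCs in 2 of the 4 genes tested, En2 and Nes, where 1.86% of 13895 genes were called (0.547% higher, 1.32% lower). En2, the Engrailed factor of midbrain and cerebellum, was at 22.1, 23.8 and 22.7 CPM in the tagged line against 14.3, 15 and 13.2 CPM in wild type. All 3 tagged libraries lay above all wild-type libraries, and En2 was 1.67-fold higher (log2 0.74, SE 0.09, adjusted p = 0.0170, edgeR). Nes, the intermediate filament of progenitors, was at 3.09, 3.38 and 3.62 CPM in the tagged line against 6.83, 7.10 and 7.32 CPM. Again the groups did not overlap, and Nes was 2.02-fold lower (log2 -1.02, SE 0.10, adjusted p = 0.0123, edgeR). So these 2 genes differed between the lines before EB formation and without degrader. Leaving out any single library other than NSD1-dTAG replicate 1 ended both calls, with adjusted p from 0.0721 to 0.108 for En2 and from 0.0668 to 0.100 for Nes, as did scaling to the ERCC spike-in RNA (0.839 and 0.373), while without the libraries that stand apart both were called. Their log2 values stayed between 0.64 and 0.79 for En2 and between -1.13 and -0.97 for Nes.

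Sox1, an early factor of the neural plate, was at 2.27, 3.27 and 3.01 CPM in NSD1-dTAG mESCs and overlapped wild type (log2 0.46, adjusted p = 0.322, edgeR). En1 was at 0.722, 0.539 and 0.692 CPM and also overlapped (log2 -0.04, adjusted p = 0.980). Neurod1 fell below the count filter, with 12 counts over the tagged libraries against 27 in wild type, a CPM ratio of 0.396 with a 95% counting interval of 0.183 to 0.808. The Neurod1 libraries did not overlap, but without a filter the adjusted p was 0.350.

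**Figure D1:**
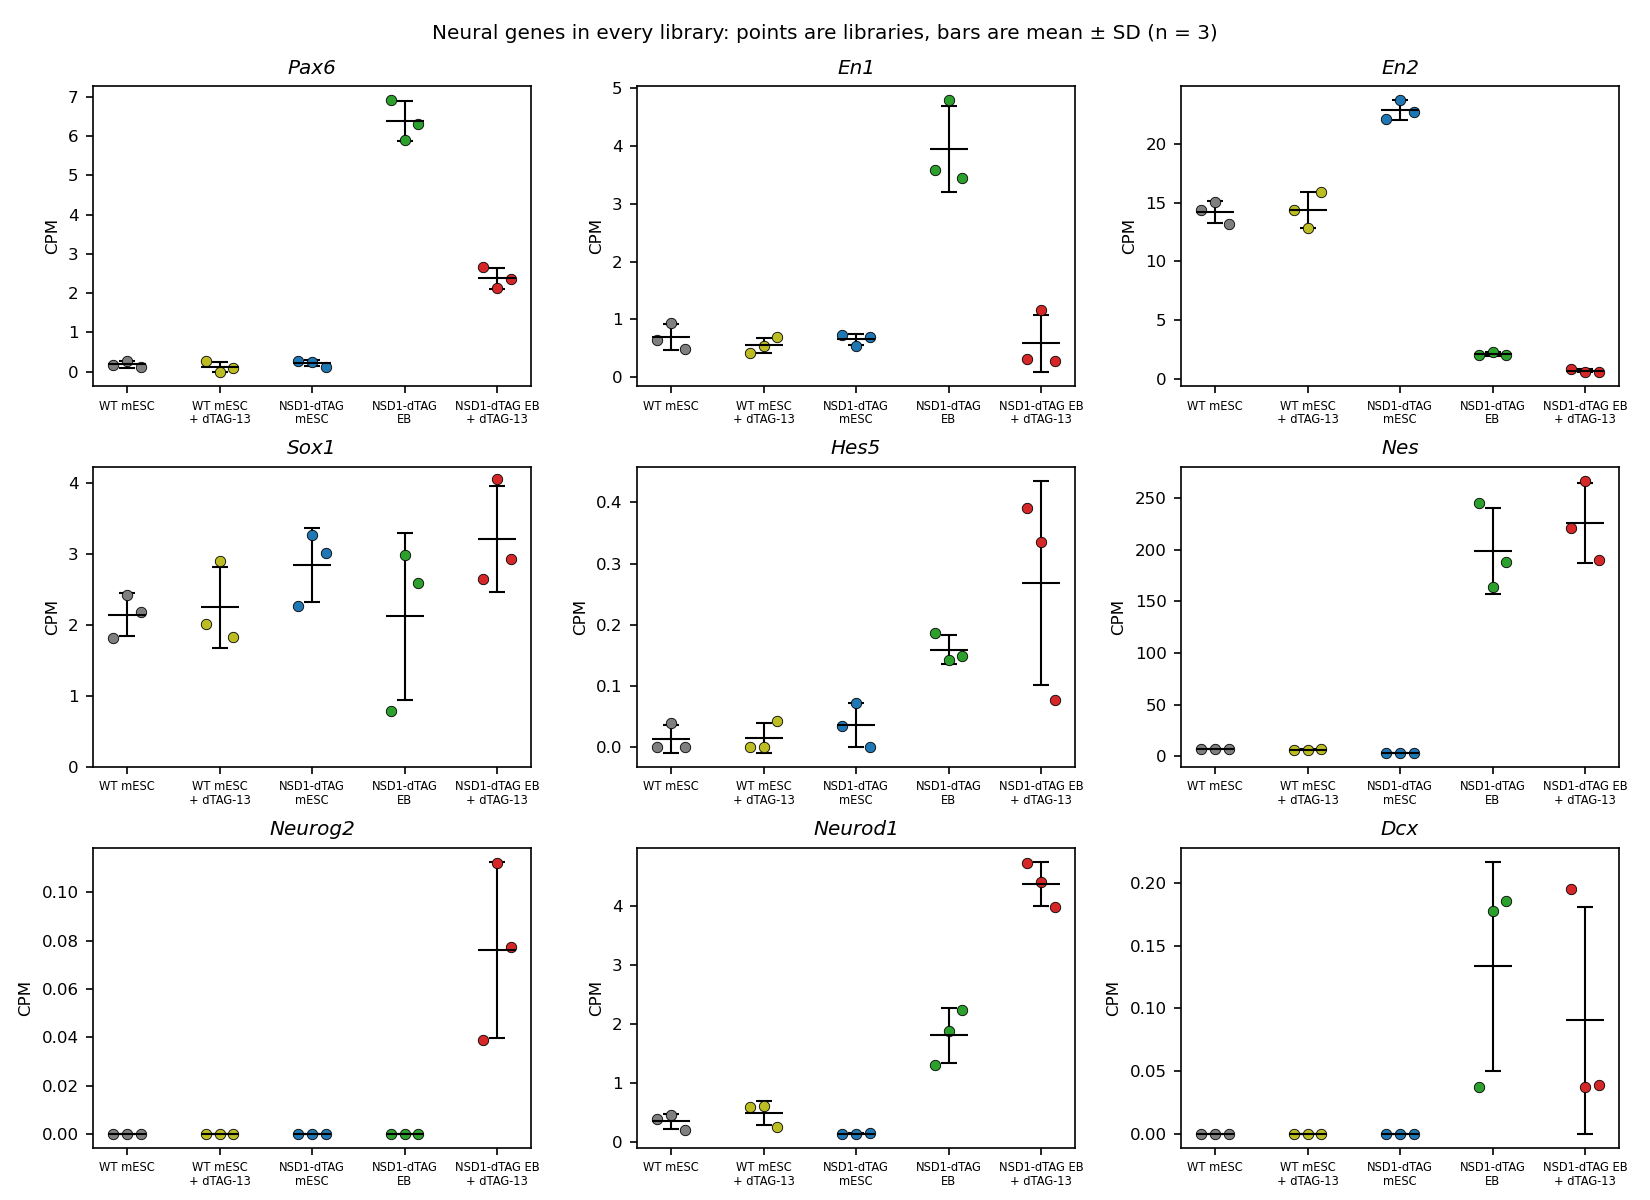
CPM of the 9 genes in each of the 15 libraries, by group, with points for libraries and bars for mean ± SD (n = 3), each gene on its own linear axis. Pax6 and En1 peaked in nontreated EBs, En2 in NSD1-dTAG mESCs, Neurod1 in dTAG-13 EBs, and Nes was high in both EB groups.

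EB formation over 6 days in the tagged line changed 5 of the 6 genes tested, 4 higher and 1 lower, where 59.5% of 15193 genes were called (33.1% higher, 26.3% lower). The median log2 fold change of the 6 genes was 2.94 against 0.02 for all genes tested. At that background a call alone did not set these genes apart. The count filter keeps a gene with enough counts in either group. Pax6 (18 counts in mESCs, 522 in EBs) and Neurod1 (12 and 148) passed through their EB counts, so the median of 2.94 leans upward. EBs also differed from mESCs in medium, and only mESC libraries held counts of ERCC spike-in RNA. These differences cannot be told apart from EB formation. In bulk RNA, fewer cells of a type and less RNA per cell cannot be told apart, here and in all later comparisons. The nontreated NSD1-dTAG mESCs stand in this comparison and in that between the lines, so the 2 are not independent.

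Of the patterning genes, Pax6, a factor of forebrain, eye and spinal cord progenitors, went from 0.275, 0.252 and 0.122 CPM in mESCs to 6.93, 5.91 and 6.32 CPM in nontreated EBs. All EB libraries were far above all mESC libraries, a 25.7-fold rise (log2 4.69, SE 0.28, adjusted p = 3.85e-06, edgeR). En1, which marks the midbrain-hindbrain boundary, went from 0.722, 0.539 and 0.692 CPM to 3.58, 4.81 and 3.46 CPM, a 5.45-fold rise without overlap (adjusted p = 6.39e-05, edgeR). En2 moved the other way, from 22.1, 23.8 and 22.7 CPM to 2.01, 2.31 and 2.04 CPM. This was an 11.9-fold fall (log2 -3.57, SE 0.14, adjusted p = 7.25e-07, edgeR), so the 2 Engrailed genes had opposite courses. En2 was the highest of the 9 genes per kilobase in mESCs and stood in the middle of the order in EBs.

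Of the progenitor genes, Nes went from 3.09, 3.38 and 3.62 CPM to 245, 163 and 188 CPM, 53.5-fold higher (log2 5.74, SE 0.20, adjusted p = 5.48e-07, edgeR). No mESC library came near any EB library. Sox1 did not pass the test: it was at 0.783, 2.99 and 2.60 CPM in EBs against 2.27, 3.27 and 3.01 CPM in mESCs, with EB replicate 1 low and the others within the mESC range (log2 -0.56, adjusted p = 0.277, edgeR). Hes5, an effector of Notch in progenitors, stayed under the count filter with 5, 4 and 4 counts in EBs against 1, 2 and 0 in mESCs. Its CPM ratio was 4.32 with a 95% counting interval of 1.19 to 23.6, and without a filter the adjusted p was 0.115.

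Of the genes of neuron formation, Neurod1, a factor of differentiating neurons and endocrine cells, went from 0.137, 0.144 and 0.163 CPM to 1.3, 1.89 and 2.23 CPM. The groups did not overlap and the rise was 10.8-fold (log2 3.43, SE 0.35, adjusted p = 6.54e-05, edgeR). Neurog2, a proneural factor, had 0 counts in both groups. Dcx had 1, 5 and 5 counts in nontreated EBs and none in mESCs. Its EB level was 3.65-fold that of 3 counts over the mESC group. This ratio leaves out the counting error of the EB counts and is not a lower limit. Without a filter the adjusted p was 0.0215 (edgeR). With 11 reads over 3 libraries, this neuronal marker was close to the limit of detection.

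Per kilobase, Nes led the order in nontreated EBs at 31.0 ± 6.51 CPM per kb (SD, n = 3), ahead of En1 at 1.5 ± 0.285. Neurod1 at 0.662, En2 at 0.600, Pax6 at 0.546 and Sox1 at 0.440 CPM per kb followed, and each overlapped its neighbour. Hes5 at 0.117 and Dcx at 0.0106 CPM per kb came last, above Neurog2, which had no counts. In dTAG-13 EBs Nes led again at 35.2 ± 6.04 CPM per kb, Neurod1 was next at 1.60 ± 0.139 and Sox1 followed at 0.667 ± 0.154. En1 at 0.221, Pax6 at 0.204, Hes5 at 0.197 and En2 at 0.192 CPM per kb overlapped one another, with Neurog2 at 0.0342 and Dcx at 0.0072 below them.

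Growing the tagged EBs with dTAG-13 asks what loss of NSD1 changes during differentiation. All 3 patterning genes fell, Neurod1 rose, and Nes and Sox1 did not pass the test. Thus 4 of the 6 genes tested were called, 3 lower and 1 higher, where 6.76% of 15236 genes were called (2.78% lower, 3.98% higher). Their median log2 fold change was -0.64 against -0.01 for all genes tested. The members were chosen with earlier results of these data known, so setting them beside all genes is not a test of the set. Because every EB carried the tag, an effect of the compound itself on differentiating cells cannot be told apart from an effect through NSD1. The nontreated EBs are also those compared with mESCs above.

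Pax6 was at 6.93, 5.91 and 6.32 CPM in nontreated EBs and 2.66, 2.13 and 2.36 CPM with dTAG-13. The highest dTAG-13 library lay well below the lowest nontreated library. Pax6 fell 2.72-fold (log2 -1.44, SE 0.17, adjusted p = 0.00628, edgeR) and was called under all 14 alternatives, with log2 values of -1.52 to -1.36. It remained above mESCs, in which no library exceeded 0.275 CPM.

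En1 was at 3.58, 4.81 and 3.46 CPM in nontreated EBs and 0.313, 1.16 and 0.270 CPM with dTAG-13. The groups did not overlap, and 2 of the 3 dTAG-13 libraries were below all nontreated NSD1-dTAG mESC libraries. En1 fell 6.80-fold (log2 -2.77, SE 0.47, adjusted p = 0.0170, edgeR). The call was lost without dTAG-13 replicate 1 (adjusted p = 0.0653), nontreated replicate 1 (0.0546) or nontreated replicate 2 (0.0667). Without dTAG-13 replicate 2, its highest dTAG-13 library, the log2 value was -3.75. That library also had the highest CPM of its group for T (33.8 against 11.6 and 0.270) and for Fgf8 (35.8 against 22.9 and 11.2), and the part of this in the En1 value was not tested.

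En2 was at 2.01, 2.31 and 2.04 CPM in nontreated EBs and 0.821, 0.597 and 0.618 CPM with dTAG-13. All dTAG-13 libraries were lower, by 3.16-fold in the fit (log2 -1.66, SE 0.23, adjusted p = 0.0100, edgeR). The adjusted p was 0.0507 without nontreated replicate 2. En2 therefore fell both from mESCs to EBs and again with dTAG-13, whereas Pax6 and En1 rose in EBs and were lower with dTAG-13.

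Neurod1 was at 1.3, 1.89 and 2.23 CPM in nontreated EBs and 4.73, 4.40 and 3.98 CPM with dTAG-13. The lowest dTAG-13 library exceeded the highest nontreated library, and Neurod1 was 2.38-fold higher (log2 1.25, SE 0.23, adjusted p = 0.0208, edgeR). This call was lost without dTAG-13 replicate 1 (adjusted p = 0.0840) or 2 (0.0646) and without nontreated replicate 1 (0.0584) or 2 (0.0846), with log2 values of 1.06 to 1.27. Neurog2 was seen only in dTAG-13 EBs among the 15 libraries, with 1, 3 and 2 counts against 0 in nontreated EBs. Its level was 2.09-fold that of 3 counts over the nontreated group. This ratio leaves out the counting error of the dTAG-13 counts and is not a lower limit. Without a filter the adjusted p was 0.213 (edgeR).

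Nes was at 245, 163 and 188 CPM in nontreated EBs and 221, 267 and 190.0 CPM with dTAG-13, and the groups overlapped. Its log2 difference was 0.16 (adjusted p = 0.661, edgeR) with a 95% interval of -0.18 to 0.50. Sox1 was at 0.783, 2.99 and 2.60 against 2.66, 4.07 and 2.93 CPM, also overlapping, with a log2 difference of 0.58 (adjusted p = 0.504) and an interval of -0.26 to 1.41. The nontreated Sox1 values had the largest relative spread of the 6 tested genes, with replicate 1 as the low one. Hes5 had 10, 9 and 2 counts with dTAG-13 against 5, 4 and 4, a ratio of 1.69 (95% counting interval 0.807 to 3.67). Dcx had 5, 1 and 1 counts against 1, 5 and 5, a ratio of 0.665 (0.219 to 1.88). Neither difference was detectable at this depth.

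**Figure D2:**
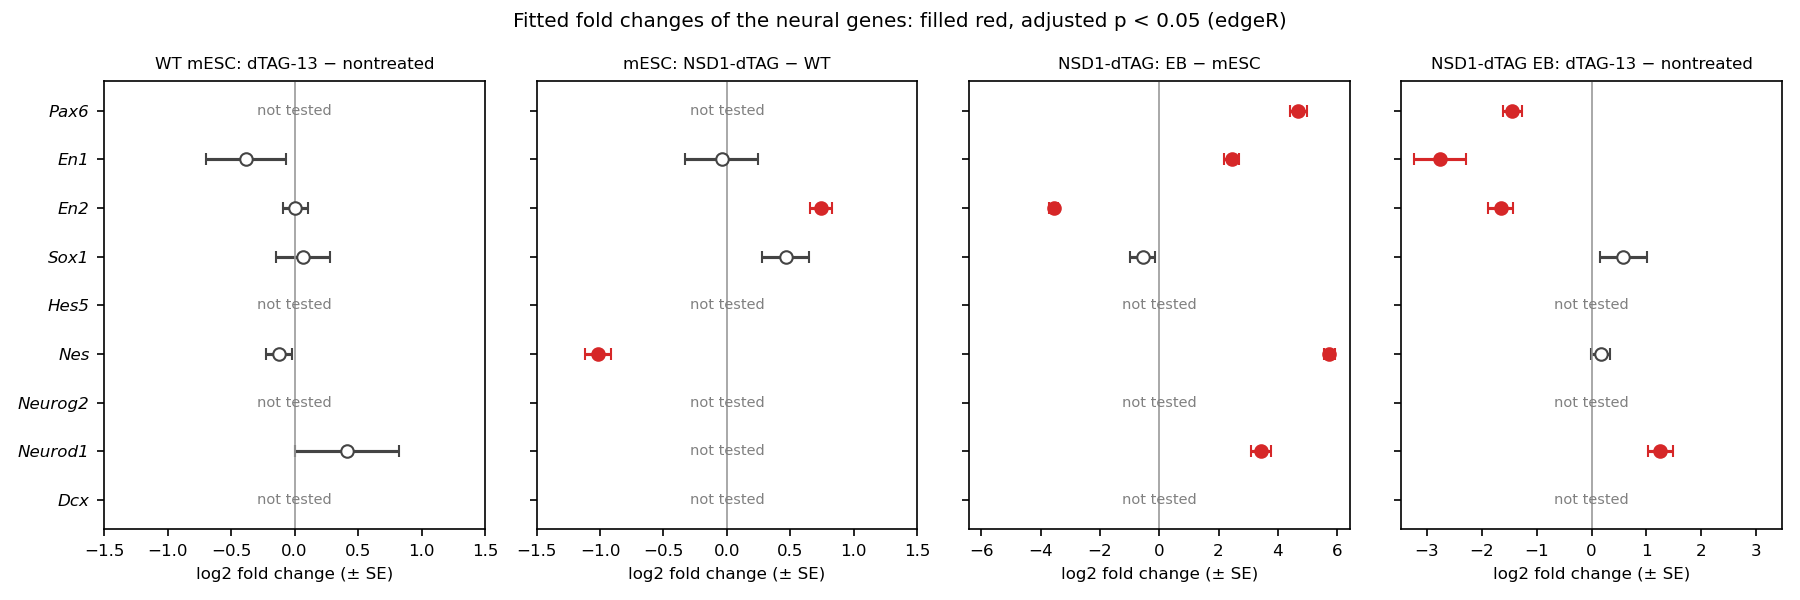
Fitted log2 fold change ± SE of each gene in the 4 comparisons between groups, each on its own axis, filled red where the adjusted p is below 0.05 and marked where the gene was under the count filter. No gene is filled for dTAG-13 in wild-type mESCs, and in EBs Pax6, En1 and En2 lie left of 0 and Neurod1 right of it.

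Whether dTAG-13 acted differently in tagged EBs and untagged mESCs was tested as an interaction over 12 libraries, in which 2.88% of 15855 genes were called (1.6% higher, 1.27% lower). En2 was the only one of the 6 tested members called: the change in EBs minus that in mESCs was -1.68 (log2, SE 0.22, adjusted p = 0.00173, edgeR). The En1 difference was -2.40 with an adjusted p of 0.0667, and it passed with the replicate number as a block (-2.51, adjusted p = 0.0397), with DESeq2 (0.00924), without a filter (4.62e-05) and without dTAG-13 EB replicate 2 (0.00512). Pax6 at -0.79 (adjusted p = 0.718), Neurod1 at 0.83 (0.474), Sox1 at 0.51 (0.738) and Nes at 0.28 (0.636) were not shown to differ. Pax6 had at most 7 counts in any wild-type mESC library. This contrast joins cell state, culture medium, line, duration of exposure and the presence of ERCC counts in mESC libraries only, which cannot be told apart.

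**Figure D3:**
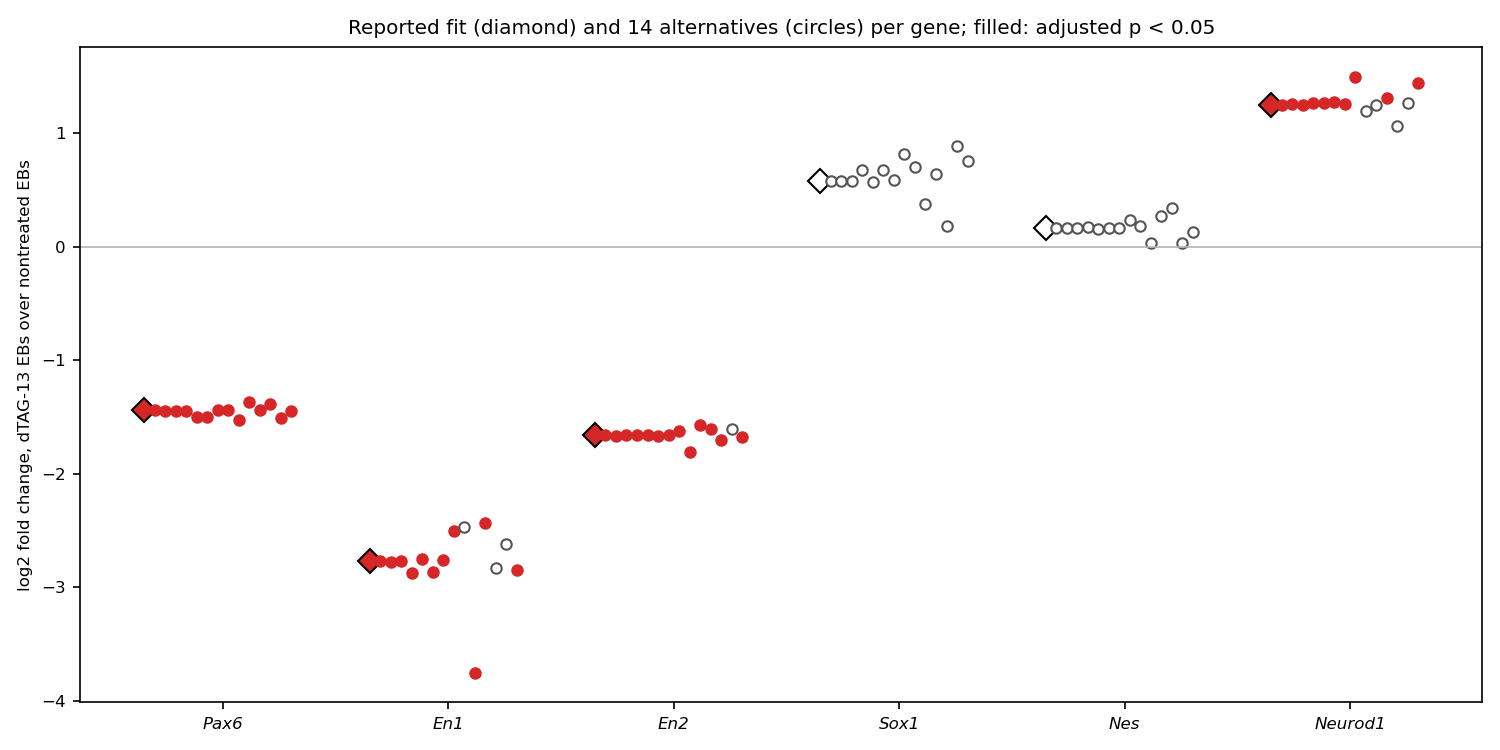
Log2 fold change of the 6 tested genes in dTAG-13 EBs over nontreated EBs in the reported fit (diamond) and 14 alternatives (circles), filled where the adjusted p is below 0.05. Pax6 is filled throughout near -1.44, En1 moves to -3.75 without 1 dTAG-13 library, and no value of these 6 genes crosses 0.

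Other neural genes were taken as lists, chosen with earlier results of these data known. Their counts in EBs against mESCs stand beside 59.5% of all genes called (33.1% higher, 26.3% lower). Listed genes with few mESC counts were tested only where EB counts were higher, as for Irx3 (5 and 366 counts) and Emx2 (1 and 184). The list medians for EBs against mESCs therefore lean upward. Of 27 patterning factors, 10 were tested in EBs against mESCs of the tagged line, and 7 were higher and 1 lower, with a median log2 of 3.55. Sox3, a SoxB1 factor of neural progenitors, rose by 3.96 and Irx3, of the neural tube, by 5.93, while Sox21 fell by 2.30. Of 11 genes of the midbrain-hindbrain boundary, which include En1 and En2, 4 of 8 tested rose and 3 fell, with a median of 1.32: Otx2, of forebrain and midbrain but also of epiblast, rose by 4.30 and Fgf8, also a streak gene, by 8.24, while Gbx2, of the hindbrain side and of naive stem cells, fell by 3.39. The boundary signal Wnt1 had 0 counts in all nontreated EBs.

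Proneural and Notch genes rose in 9 of 13 tested and fell in none, with a median of 2.09, among them the Notch ligand Dll1 (6.21) and the receptor Notch3 (3.34). Neurod2, Neurod4 and Neurod6 had 0 counts in nontreated EBs. Of 21 neuronal genes, all tested, 14 rose and 6 fell, with a median of 3.54. Dclk1, a relative of Dcx, rose by 7.18 and the synaptic vesicle protein Syp by 4.59, whereas the microtubule proteins Mapt and Tubb3 fell by 4.28 and 2.44. Of 12 genes of radial glia and glia, 8 of 9 tested rose and Vim fell, with a median of 4.43. Stmn2, a tubulin-binding protein of neurons and the most abundant of the 21 neuronal genes in the tagged mESCs, fell from 362, 254 and 245 CPM to 75.9, 70.8 and 80.1 CPM. All log2 values in this and the preceding paragraph are edgeR fold changes with adjusted p below 0.05.

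In EBs with dTAG-13, against the 6.76% of all genes called (2.78% lower, 3.98% higher), 3 of 10 patterning factors were lower and 1 was higher, with a median of -0.46. Emx2 (184 counts nontreated, 12 with dTAG-13) and Nkx6-1 (131 and 9) passed the count filter through nontreated EBs only. Emx2, of the forebrain, was at 1.86, 3.52 and 1.3 CPM nontreated and 0.0782, 0.299 and 0.0772 CPM with dTAG-13 (log2 -3.84, adjusted p = 0.0118, edgeR). Nkx6-1, of ventral neural tube and pancreas, fell by 3.75 and Sox21 by 1.68. Nkx2-2, also of ventral neural tube and pancreas, rose, from 0.485, 1.03 and 0.446 CPM to 2.50, 2.13 and 1.85 CPM (log2 1.69, adjusted p = 0.0258, edgeR). Of the boundary genes 4 of 8 fell and none rose, with a median of -0.74. These were En1, En2, Fgf8 (log2 -1.63, adjusted p = 0.0454) and Fgf17 (log2 -1.24, adjusted p = 0.0304). Otx2, at 136, 133 and 149 against 133, 139.8 and 102 CPM, was not called.

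Against the same 6.76%, 3 of 14 proneural and Notch genes tested were higher and 2 lower, with a median of -0.05. Neurog3, a proneural factor of endocrine progenitors and some neurons, was at 0.0746, 0.178 and 0.372 CPM nontreated and 1.21, 0.933 and 0.965 CPM with dTAG-13. It was higher in all 3 dTAG-13 libraries (log2 2.27, adjusted p = 0.0262, edgeR), as were Hes6 (0.68) and Notch3 (0.57), while the ligand Jag1 fell by 1.37 and Hey1 by 1.01. Of 21 neuronal genes 1 rose and 3 fell, with a median of -0.09. Syp rose by 1.07, Isl1, of motor neurons but also of cardiac and endocrine progenitors, fell by 4.51, Mapt by 1.06 and the neurofilament Nefl by 0.56. Of 9 radial glial and glial genes 3 fell and none rose, with a median of -1.45, among them Vim (-1.69) and Cdh2 (-1.81), both also abundant in mesenchyme, and Fabp7 (-2.06), of radial glia. With the replicate number as a block, calls over all genes rose as well, from 1030 to the count given at the end. Patterning factors then had 5 calls, proneural and Notch genes 7, neuronal genes 6 and these glial genes 6, 1 higher and 5 lower.

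**Figure D4:**
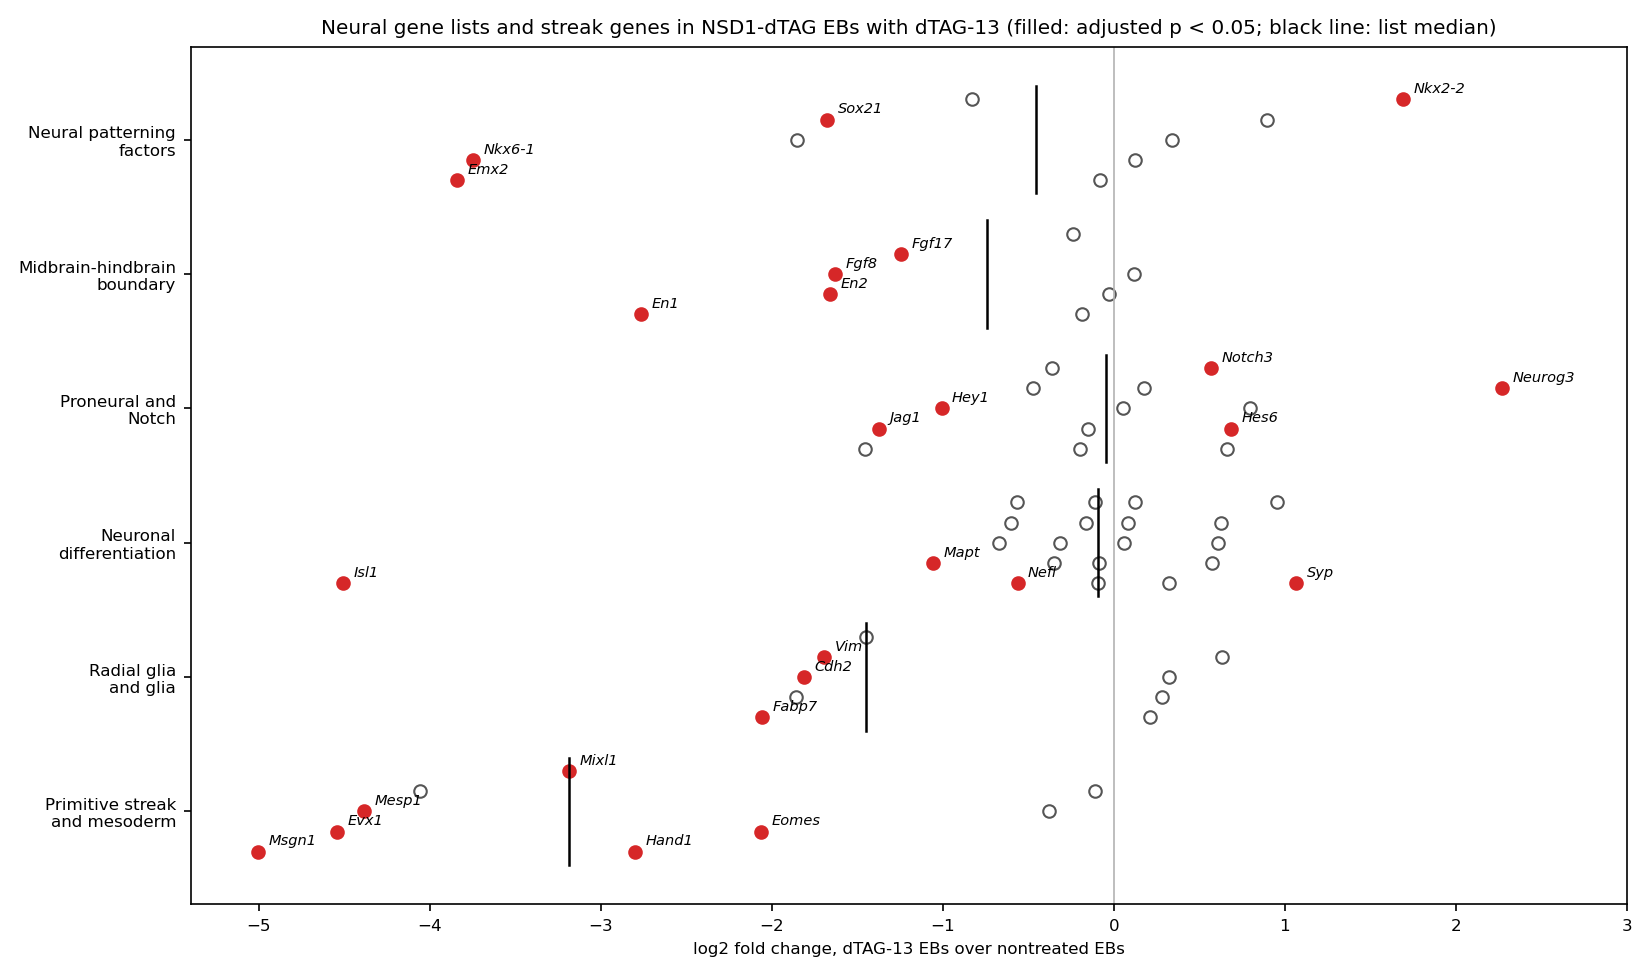
Log2 fold changes of the tested genes of 5 neural lists and of a streak and mesoderm list in dTAG-13 EBs over nontreated EBs, filled and named where the adjusted p is below 0.05, with a line at each list median. The streak list lies farthest left with a median of -3.19, and the proneural and neuronal lists have medians near 0.

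Without the libraries that stand apart, a setting chosen after the data were seen for the lists, the 9 genes gave the same numbers of calls in every comparison. In dTAG-13 EBs the calls over all genes then rose from 1030 of 15236 to 3233 of 15463, and the list counts are to be read against that. Patterning factors then had 7 calls, 2 higher and 5 lower, boundary genes 4, all lower, proneural and Notch genes 8, 3 higher and 5 lower, neuronal genes 8, 4 in each direction, and glial genes 8, 3 higher and 5 lower. The counts that follow are again from the reported fit on all EB libraries, where 6.76% of 15236 genes were called (2.78% lower, 3.98% higher). Genes of stem cells and of other tissues moved in the same EBs. Of 12 pluripotency genes 4 fell with dTAG-13 and none rose, among them Nanog, from 335, 385 and 349 CPM to 215, 244 and 191 CPM, and Zfp42, from 141, 138 and 98.1 CPM to 72.3, 55.7 and 45.6 CPM. Of 9 tested streak and mesoderm genes 6 fell with dTAG-13 and none rose, and the sum of all 11 listed was 337 to 816 CPM nontreated and 54.6 to 143 CPM with dTAG-13. Endoderm genes summed to 468 to 507 CPM nontreated and 184 to 588 CPM with dTAG-13, and 2 of 11 fell. The 9 pancreatic endocrine genes summed to 8.85 to 11.9 and 7.35 to 9.19 CPM, none of 3 tested was called, and Pax4, Ins1 and Gcg had 0 counts in all EBs. Of the 8 endothelial genes listed, 7 were tested, 1 rose and 2 fell, with sums of 72.5 to 161 and 63.7 to 80.9 CPM, and Emcn had 0 counts in nontreated EBs. Of 8 tested neural crest and surface ectoderm genes 2 fell, with sums of 721 to 1126 and 743 to 1009 CPM. The part of these cell types in the values of Pax6, En1, En2, Nes and Neurod1 was not tested.

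Across the 15 libraries, the genes whose log2(CPM + 0.5) followed a member most closely by Pearson's r are given as a description, since the split between mESCs and EBs and the shared libraries set most of such values. Pax6 was nearest to the imprinted RNA H19 (0.99) and Exoc3l4 (0.99), and En1 to the streak and organizer genes Fst (0.95) and Gsc (0.95). En2 was nearest to Mapt (0.99), Nes to Mex3c (1.00) and Arl4c (1.00), and Neurod1 to Ica1 (0.99) and Pde4b (0.99). Sox1, which did not follow the split, reached only 0.77 with Glyr1 and 0.73 with Rars2. No member was among the 2 nearest genes of another.

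Counts of some members can hold reads of overlapping annotated genes; for partners on the opposite strand this depends on the strand counted, which is not given in the sources used here. On GRCm38 with GENCODE M21, Neurod1 (ENSMUSG00000034701.9, chr2:79452521-79456751, − strand) shares 7.37% of its exon bases with Cerkl on the same strand, which had 125 counts over all libraries, and 5.64% with Gm26755 on the other, which had 0. Hes5 (ENSMUSG00000048001.7, chr4:154960923-154962371, + strand) shares 31.8% with the opposite-strand Gm20421, which had 2 counts. Sox1 (ENSMUSG00000096014.1, chr8:12395295-12400126, + strand) shares 1.78% with Gm25239, which had 0 counts. Pax6 (ENSMUSG00000027168.21, chr2:105668900-105697364), En1 (ENSMUSG00000058665.8, chr1:120602418-120607992), En2 (ENSMUSG00000039095.8, chr5:28165694-28172166), Nes (ENSMUSG00000004891.16, chr3:87971078-87980451) and Neurog2 (ENSMUSG00000027967.8, chr3:127633135-127635631), all on the + strand, and Dcx (ENSMUSG00000031285.14, chrX:143855842-143933311, − strand) share no exon with another gene of that annotation. All values are sums over the exons of a gene, so isoforms such as the alternative Pax6 starts were not told apart.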

How the data were processed

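Poly(A) RNA of 15 libraries was measured with strand-specific libraries and ERCC spike-in RNA, per the labels' protocols. The authors deposited raw counts per gene. Per the submitters' processing notes, the builds were GRCm38.p6 and mm10 and the tools bcl2fastq 2.20.0.422, STAR and DESeq2 1.30.0; how reads were counted, and on which annotation and strand, is not given in the sources used here. Of 55471 gene IDs, 55230 matched GENCODE release M21. Library sizes and tests left out the 92 ERCC rows, which held 0.292% to 0.496% of counts in mESC libraries and 0 in EB libraries.

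The members, lists and libraries that stand apart were chosen with earlier results of these data known. The 9 members were always named, with up to 4 called genes per list by adjusted p (some left out for length) and the 2 genes most correlated with each member of at least 1 CPM in some group; a few listed genes were named beside them for a count of 0 or a level, after their values were seen. A few items that this rule names are not reported here.

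CPM scales counts to 1000000 gene counts per library, without TMM factors. edgeR 4.0.16 in R 4.3.3 (TMM, filterByExpr, quasi-likelihood F test, Benjamini-Hochberg over all genes tested, called below 0.05) was fitted to the libraries of each comparison's own groups. A gene under the filter is given by counts, with an exact 95% interval of the ratio, which covers counting error only. Where 1 group had no counts, the ratio is to 3 counts over that group. It leaves out the counting error of the other group. Every replicate pair differed beyond sampling noise. Same-numbered libraries deviated together between the lines (correlations 0.562, 0.270 and 0.268) and between the EB groups (0.227, 0.261 and 0.374), a reading of the data and not of the labels. Between the lines replicates 2 and 3 did so across numbers too (0.234 and 0.207), as did EB replicates 1 and 2 (0.172 and 0.108). A pairing by number cannot be told apart from the libraries that stand apart, which share a number there. The reported fits used no pairing, and the numbers entered only the replicate block. Alternatives were DESeq2 (1.42.0) and its size factors, no filter, the replicate block, a gene-length offset, all libraries in 1 fit, ERCC scaling for mESCs and leaving out libraries. The fits were tested on simulated data.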

Additional observations from a re-analysis of the deposited data

Results flagged for a closer look

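For En2, the change with dTAG-13 differed between NSD1-dTAG EBs and wild-type mESCs by a test of the difference itself. The log2 difference between the 2 changes was -1.68 (adjusted p = 0.00173, edgeR over 12 libraries). All 3 dTAG-13 EB libraries lay below every nontreated EB library, and the wild-type mESC groups overlapped. The call was kept in each of the 20 alternatives run, with log2 values of -1.83 to -1.58. Cell state, culture medium, line, length of exposure and the presence of ERCC counts differ together between the 2 arms and cannot be told apart.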

How the results depend on the processing

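Of 423 fold changes of the members under alternatives, 388 kept their direction and their side of the threshold, 20 kept the direction but lost the call, 5 gained a call and 10 changed sign. No fold change that was called changed sign. The sign changes were, for dTAG-13 in wild-type mESCs, En2 at -0.0030 with the gene-length offset, -0.0040 with block and offset, -0.062 without the libraries that stand apart, -0.065 without dTAG-13 replicate 3 and -0.042 without nontreated replicate 3 (up to 0.090 without other libraries), and Sox1 at -0.15 without dTAG-13 replicate 2 and -0.052 without nontreated replicate 1 (up to 0.19). Between the lines, En1 came to 0.10 without NSD1-dTAG replicate 2 and 0.24 without wild-type replicate 2 (down to -0.21), and the Pax6 interaction to 0.63 without wild-type dTAG-13 replicate 1 (down to -1.35).

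Between the lines 0 members were called with ERCC scaling, which moved the median of all genes to -0.10, and 0 to 2 when single libraries were left out; in dTAG-13 EBs 1 to 4 were called without single libraries. For the interaction 2 were called with DESeq2, without a filter, with the replicate block and with block and offset, and 1 to 2 without single libraries. For EBs against mESCs 5 or 6 were called under each alternative, and for dTAG-13 in wild-type mESCs 0. The causes were not tested.

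The replicate block changed no member's call between the lines, in EBs against mESCs or in dTAG-13 EBs; En2 between the lines had an adjusted p of 0.00684 with it. Same-numbered libraries did not deviate together for dTAG-13 in wild-type mESCs (-0.269, 0.216 and -0.237) or for EBs against mESCs (-0.184, 0.112 and -0.239), so there the numbers only name libraries.

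Counts over all genes moved more. In wild-type mESCs 0 genes became 16 without the libraries that stand apart. Between the lines 259 (76 higher, 183 lower) became 643 (254 higher, 389 lower) with the offset, 636 with DESeq2, 785 with the block, 1404 with both, 500 with all libraries in 1 fit, 3123 without the libraries that stand apart, 1 with ERCC scaling and 1 to 1248 without single libraries. In dTAG-13 EBs 1030 became 1686 with DESeq2, 1834 with the block, 1820 with block and offset, 1931 with all libraries, 3233 without the libraries that stand apart and as few as 182 without 1 library. The interaction's 456 became 804 with DESeq2, 915 without a filter, 715 with block and offset, 1897 without the libraries that stand apart and 202 to 763 without single libraries. Between the lines, the list counts are to be read against the rise over all genes, from 259 of 13895 (1.86%) to 3123 without the libraries that stand apart. Patterning factors then had 3 calls in place of 1 of 8 tested, and proneural and Notch genes 5 in place of 0 of 11. Neuronal genes had 8 in place of 3 of 14, and glial genes 4 in place of 1 of 5. The replicate block, with 785 calls over all genes, gave 3, 2, 6 and 2. Depth limits Hes5, Neurog2 and Dcx, which had at most 10 counts in a library.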
